A study of Mus musculus with 12 samples.

Results

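Nmu, Sct, Npy, Gal, Cck, Nmb, Vgf and Adcyap1 encode peptides that endocrine cells and neurons store in dense-core granules. These 8 genes were measured in MIN6 cells, an insulin-secreting line from a mouse β-cell tumor, after forced expression of the microRNA miR-184. Nmu and Sct were chosen by their higher signal at the early times of induction than in the transfected control, so those values are given here as a description without a p-value. The other 6 genes were taken as peptide genes of endocrine cells. All probes annotated with these symbols were used, 9 of the 45281 probes on the array, and 6 of the 8 genes passed the filter on detection and were among the 12001 features tested. Gal and Adcyap1 did not pass it.

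There were 6 groups with 2 arrays each, 12 in all, of the Illumina MouseWG-6 v2 type. Cells of the induced groups had been transfected with an rtTA plasmid and a tetO-184 plasmid, from which doxycycline switches on miR-184, and were then kept in doxycycline at 1 µg/ml for 16, 24, 48 or 72 hr. The transfected control had the same plasmids without the drug, and the untransfected control received doxycycline and lipofectamine but no plasmid. No time of harvest is stated for the controls, every group is the same cell line, and the plasmids were introduced transiently, so that each array averages over cells that took them up and cells that did not. The 2 controls differ both in the plasmids and in doxycycline, so transfection and the absence of doxycycline cannot be told apart when they are compared. The induced groups differ from the transfected control in doxycycline as well as in miR-184, and these cannot be told apart in that comparison. With no harvest time for the controls, time in culture cannot be separated from the hours of induction either. Each of the 2 slides held 1 array of every group.

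The arrays detected between 15243 and 16737 probes each (detection p under 0.01). Of the markers of β cells, 9 of 10 were on the array and all 9 were detected on every array. Gcg and Irx2 of α cells and Ppy of PP cells were also detected on every array. Of 22 markers of δ, acinar, duct, fibroblast, endothelial, macrophage and neural or glial cells on the array, 0 were detected on any array. The summed signal of their 39 probes was 2355 to 2599 at 16 hr, 2324 to 2490 at 24 hr, 2180 to 2241 at 48 hr, 2335 to 2396 at 72 hr, 2405 to 2694 in the transfected control and 2488 to 2798 in the untransfected control. For arrays, their number limits the precision, and in RNA of a whole culture fewer cells that express a gene and less RNA per cell cannot be told apart.

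Neuropeptides are cut from larger precursors by prohormone convertases in the secretory granule and are released together with insulin when the β cell is stimulated. They then act on G-protein-coupled receptors of the same or neighboring cells. Receptors for secretin and for the product of Adcyap1 raise cAMP, which increases insulin release, while receptors for neuropeptide Y and galanin lower cAMP and restrain it. Several of these genes are themselves known to respond to cAMP through CREB, a factor whose binding sequence has TGACG as its core.

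The sequence of the microRNA is shown because its induction defines the groups. It is the mature mouse miR-184-3p of RefSeq (GRCm38.p6, chr9:89802263-89802284, minus strand), written 5′ to 3′ with the seed, bases 2 to 8, in capitals. The arrays were not used to measure the microRNA itself.
mmu-miR-184-3p: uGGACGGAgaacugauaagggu

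The upstream sequences of the 2 genes that were picked for their early rise are shown from the same RefSeq build, each 5′ to 3′ on the strand of the gene and ending before its annotated transcript. Capitals mark TGACG, the core of the CREB binding sequence, in the 250 bases before Nmu (chr5:76363778-76364027, minus strand) and CAGCTG, an E-box, in the 209 bases before Sct (chr7:141279175-141279383, minus strand).
Nmu: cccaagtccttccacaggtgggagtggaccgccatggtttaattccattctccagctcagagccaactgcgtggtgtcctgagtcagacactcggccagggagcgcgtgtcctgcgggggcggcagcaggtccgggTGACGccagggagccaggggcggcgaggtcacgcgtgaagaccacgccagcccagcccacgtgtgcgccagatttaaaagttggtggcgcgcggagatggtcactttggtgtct
Sct: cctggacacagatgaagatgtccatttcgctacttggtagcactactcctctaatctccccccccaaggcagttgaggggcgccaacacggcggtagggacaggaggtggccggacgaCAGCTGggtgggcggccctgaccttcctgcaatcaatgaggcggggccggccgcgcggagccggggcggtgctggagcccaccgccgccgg

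Promoter windows of 300 bases, 250 before and 50 after a start site, were at hand for 7 of the 8 genes, all but Vgf. On either strand, TGACG occurred in the windows of 4 of these 7 genes, Nmu, Gal, Cck and Adcyap1, and in 20.8% of the 32851 mouse promoter windows of that length. It began 114 bases before the start site of Nmu and 47 bases before that of Cck, where it lay on the opposite strand. CAGCTG occurred, among these 7 genes, in the window of Sct and in 16.3% of all windows. It began 91 bases before the annotated gene, as in the printed sequence, and 132 bases before the start site on which the window of Sct is set, which lies 41 bases inside the gene. TATAAA occurred in the windows of Sct and Adcyap1 and in 13.6% of all. The 3 motifs do not overlap in these windows, and a match is a description of the sequence and not a binding site.

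Nmu encodes neuromedin U, a peptide that contracts smooth muscle and reduces food intake. The gene lies at chr5:76333495-76363777 (GRCm38.p6, as for all positions below) and had 1 probe. Its bead-averaged signal, before normalization, was 108.2 and 124.6 at 16 hr, 119.9 and 169.5 at 24 hr, 76.5 and 90.2 at 48 hr and 63.9 and 71.6 at 72 hr. It was 61.4 and 72.8 in the transfected control and 59.6 and 71.1 in the untransfected control. The signal was thus highest at 24 hr, and the 16 and 24 hr arrays did not overlap with those of any other group. These 4 arrays were the only ones on which Nmu was detected, that is, had a detection p under 0.01.

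After background correction and quantile normalization (log2 scale), Nmu averaged 6.15 ± 0.21 at 16 hr, 6.58 ± 0.52 at 24 hr, 5.57 ± 0.34 at 48 hr and 4.88 ± 0.18 at 72 hr, against 4.75 ± 0.05 in the transfected control and 4.68 ± 0.04 in the untransfected control (SD, n = 2 each). Because neither control was well above background, its change is a lower bound, which sets the bright group's mean against the lowest signal still well above background on the dim arrays. Nmu was at least 1.16-fold higher at 16 hr and at least 1.57-fold higher at 24 hr than in the transfected control. Against the untransfected control, which did not choose the gene but was compared with the same induced arrays, the bounds were 1.26-fold and 1.70-fold. The fitted differences from the transfected control were 1.39 and 1.83 on the log2 scale, and with another background offset, with no background correction or with the authors' own normalized values they lay between 0.78 and 0.88 at 16 hr and between 1.07 and 1.16 at 24 hr. Leaving out 1 of the 24 hr arrays gave a difference of 2.20 without replicate 1 and of 1.46 without replicate 2.

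The later course of Nmu was compared with the untransfected control, since neither these arrays nor that control chose it. Nmu passed the filter on detection only through the 16 and 24 hr arrays, so these tests are not independent of the choice. At 48 hr the 2 arrays (5.33 and 5.81) lay above both untransfected controls (4.65 and 4.71), and the difference did not pass the test over all features (adjusted p = 0.302 in limma, Benjamini-Hochberg, and 0.0688 with the slide as a block). At 72 hr the values were 4.76 and 5.01 (adjusted p = 0.697). At both times the induced group and the control were below the level of detection, so that no fold is given. No conclusion is drawn from these p-values.

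**Figure D1:**
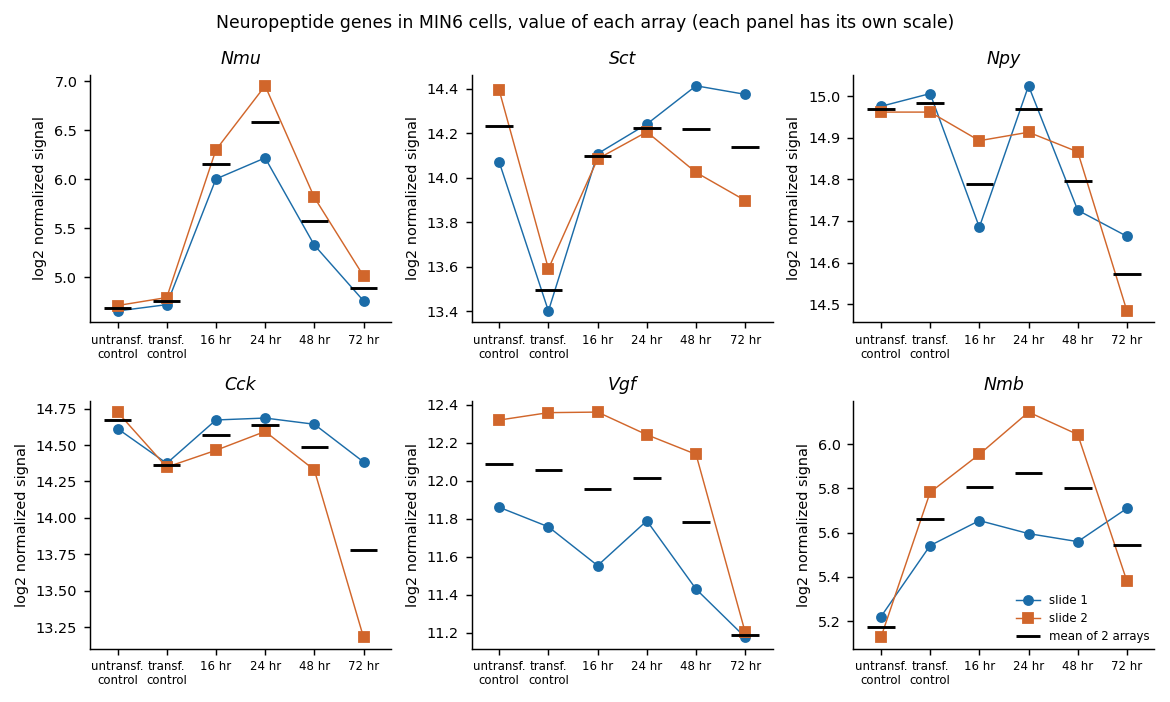
Log2 normalized signal of the 6 tested peptide genes on each of the 12 arrays, by group, with the untransfected and the transfected control at the left and the hours of induction after them. Circles and squares are the arrays of slides 1 and 2 and black bars are means of 2 arrays. Nmu peaks at 24 hr, Sct is lowest in the transfected control, Npy and Vgf are lowest at 72 hr, and Cck is low on 1 of the 2 arrays at 72 hr.

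**Figure D2:**
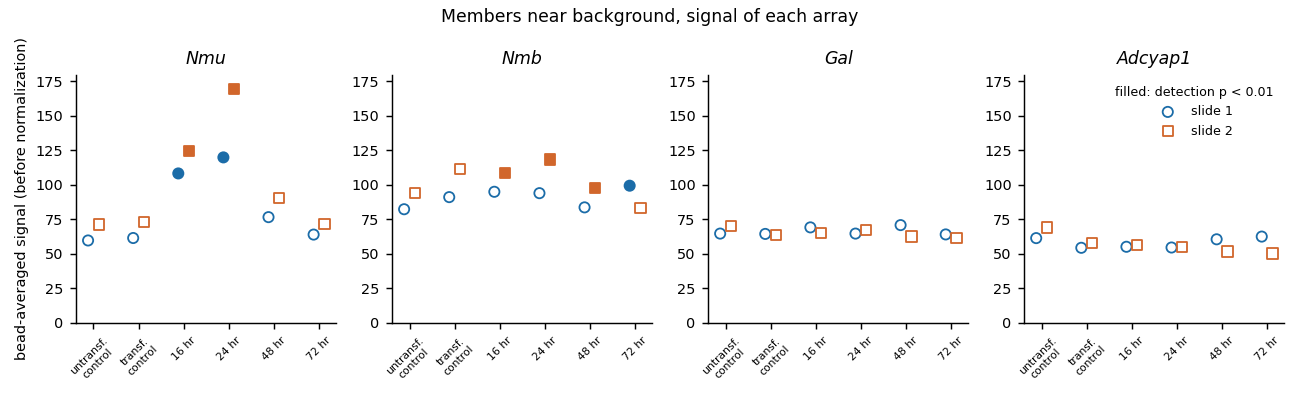
Bead-averaged signal before normalization (linear axis from 0) of the 4 peptide genes near background, by group and slide. Filled symbols have a detection p under 0.01, as 4 arrays of Nmu and 4 of Nmb do, while Gal and Adcyap1 were detected on 0 of 12 arrays.

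Sct encodes secretin, the hormone of duodenal S cells that makes pancreatic ducts release bicarbonate (chr7:141278329-141279174, 1 probe). It was among the brightest probes of every array, ranking between 78 and 342 from the brightest of the 45281. Its log2 normalized values were 14.11 and 14.09 at 16 hr, 14.24 and 14.21 at 24 hr, 14.41 and 14.02 at 48 hr and 14.37 and 13.90 at 72 hr. The transfected control had 13.40 and 13.59 and the untransfected control 14.07 and 14.39. The transfected control was thus below every other array, and the induced and the untransfected arrays overlapped.

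The group means of Sct were 0.60, 0.73, 0.72 and 0.64 above the transfected control at 16, 24, 48 and 72 hr on the log2 scale, with slide values of 0.71 and 0.49 at 16 hr and of 0.84 and 0.61 at 24 hr. Against the untransfected control the differences were −0.13, −0.01, −0.01 and −0.10, and those at 48 and 72 hr, which had no part in the choice of the gene, did not pass the test (adjusted p = 0.987 and 0.769 in limma). The transfected control itself was lower than the untransfected control by −0.73 (−0.67 and −0.80 on the 2 slides). The transfected control is also the only group without doxycycline, and whether this had a part in its level of Sct was not tested. At 72 hr the slides gave 0.97 and 0.31 above the transfected control, so that the late level rests more on 1 slide, and without replicate 1 of the 72 hr arrays the difference was 0.40.

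**Figure D3:**
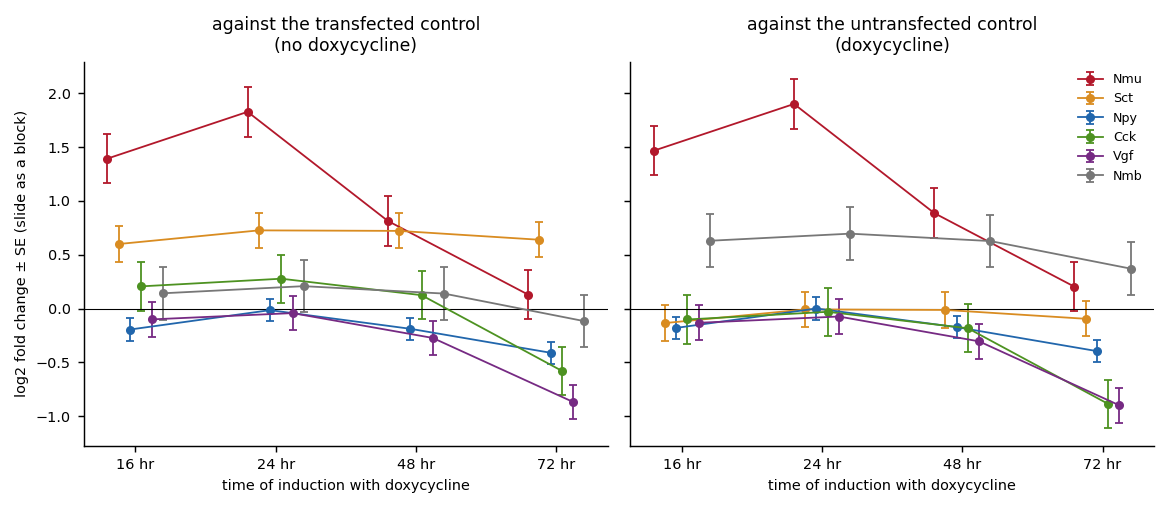
Log2 fold change (± SE, fit with the slide as a block) of the 6 tested peptide genes at each time of induction, against the transfected control (left) and the untransfected control (right); points are shifted sideways for legibility. Nmu is above both controls at 16 and 24 hr, Sct is above the transfected control only, and the points of Npy, Cck and Vgf lie below 0 at 72 hr against both.

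Npy encodes neuropeptide Y, a peptide of sympathetic nerves and young β cells that restrains insulin release (chr6:49822710-49829507, 1 probe). It ranked between 14 and 67 from the brightest on every array. After quantile normalization the value at such ranks is set by the rank. Replicate 2 of both controls, each at rank 18, thus had the same value, 14.96, from signals of 38503 and 37610. The spread between arrays of Npy therefore depends in part on the normalization. Its log2 normalized values were 14.69 and 14.89 at 16 hr, 15.03 and 14.91 at 24 hr, 14.73 and 14.87 at 48 hr and 14.66 and 14.48 at 72 hr, against 15.01 and 14.96 in the transfected control and 14.98 and 14.96 in the untransfected control. The 72 hr arrays were below those of every other group. Npy was lower at 72 hr than in the transfected control by −0.41 (SE 0.11, adjusted p = 0.0474 in limma), on both slides (−0.34 and −0.48), and lower than in the untransfected control by −0.40 (adjusted p = 0.0478). With the slide as a block the adjusted p-values were 0.0170 and 0.0188. Leaving out single arrays with the block gave −0.52 to −0.30 against the transfected and −0.50 to −0.29 against the untransfected control. With the block, the call against either control held only on leaving out replicate 1 of the 72 hr arrays. It was lost on leaving out any other array of the comparison. At 16, 24 and 48 hr the differences from the transfected control were −0.20, −0.01 and −0.19, and none passed.

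The call for Npy was close to the threshold. It was lost with median scaling (−0.45, adjusted p = 0.125), with no filter on detection (0.114) and with only the 2 groups in the fit (0.109). It was also lost on leaving out replicate 2 of the 72 hr arrays (−0.32, adjusted p = 0.289) or replicate 1 or 2 of the transfected control (−0.39 and −0.43, adjusted p = 0.167 and 0.182). The call against the untransfected control was lost in the same settings and without replicate 2 of the 72 hr arrays (−0.31, adjusted p = 0.301) or either untransfected array (−0.39 and −0.40, adjusted p = 0.185 and 0.166).

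Vgf encodes a granin-like protein of the dense-core granule that is cut into several bioactive peptides (chr5:137025301-137033351). Of its 2 probes the brighter was tested. Its log2 normalized values were 11.55 and 12.36 at 16 hr, 11.79 and 12.24 at 24 hr, 11.43 and 12.14 at 48 hr and 11.18 and 11.20 at 72 hr. The transfected control had 11.76 and 12.36 and the untransfected control 11.86 and 12.32. Slide 2 was the brighter in every group, the 2 slides came closest at 72 hr, and both 72 hr arrays were below all others.

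With the slide as a block, Vgf was lower at 72 hr than in the transfected control by −0.87 (SE 0.16, adjusted p = 0.00485 in limma), with slide values of −0.58 and −1.15, and than in the untransfected control by −0.90 (adjusted p = 0.00387). Without the block neither passed (adjusted p = 0.108 and 0.0933). Without replicate 2 of the transfected control the blocked difference was −0.81 and did not pass (adjusted p = 0.0808). It passed on leaving out any other array of this comparison. The second probe, which was dimmer, differed by −0.56 from the transfected control in the same direction on both slides (−0.30 and −0.81). At 48 hr Vgf differed from the transfected control by −0.27 and did not pass.

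Cck encodes cholecystokinin, which contracts the gallbladder, stimulates the acinar pancreas and promotes insulin release (chr9:121489824-121495694, 1 probe). Its log2 normalized values were 14.67 and 14.46 at 16 hr, 14.69 and 14.59 at 24 hr, 14.64 and 14.33 at 48 hr and 14.38 and 13.18 at 72 hr, against 14.37 and 14.35 in the transfected control and 14.61 and 14.73 in the untransfected control. Replicate 2 at 72 hr, with a signal of 8673, was below every other array, while replicate 1 was within the range of the other groups. The difference from the transfected control at 72 hr was −0.58, with slide values of 0.01 and −1.17, and did not pass (adjusted p = 0.217 in limma, and 0.0882 with the block). Against the untransfected control it was −0.89 (adjusted p = 0.0726 without the block and 0.0167 with it), and with the block it did not pass without replicate 2 of the 72 hr arrays (−0.34, adjusted p = 0.135) or without replicate 2 of the untransfected control (−0.65, adjusted p = 0.210).

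Nmb encodes neuromedin B, a relative of bombesin and gastrin-releasing peptide (chr7:80902227-80905062, 1 probe). It was detected on 4 arrays, 1 at each time of induction, and on neither array of either control. Its bead-averaged signal was 94.9 and 108.7 at 16 hr, 93.9 and 118.3 at 24 hr, 83.6 and 97.5 at 48 hr and 99.3 and 83.3 at 72 hr, against 91.0 and 111.6 in the transfected control and 82.2 and 94.0 in the untransfected control. These signals overlapped with those of the transfected control at every time and with those of the untransfected control at 24, 48 and 72 hr, while at 16 hr both lay above the untransfected control. After normalization, the arrays of all 4 times and of the transfected control lay above both untransfected arrays. At 24 hr the log2 normalized values were 5.60 and 6.14, with 1 of 2 arrays detected, against 5.22 and 5.13 in the untransfected control, so no fold is given. Nmb passed the filter on detection only through induced arrays, so its tests against the controls are not independent of the filter. It did not pass at any time (adjusted p = 0.415 at 72 hr against the untransfected control in limma).

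Gal encodes galanin, which restrains insulin release (chr19:3409915-3414544), and Adcyap1 encodes the precursor of PACAP, which raises cAMP in β cells (chr17:93198245-93206541). Each had 1 probe, detected on 0 of 12 arrays, with bead-averaged signals of 61.2 to 70.7 for Gal and 50.2 to 68.9 for Adcyap1. Neither was tested, and a change in these genes was not measurable on these arrays.

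Of the 4 genes that could be tested against the transfected control, Npy, Cck, Nmb and Vgf, 0 passed at 16, 24 and 48 hr and 1 at 72 hr, Npy, which was lower. With the slide as a block there were 2 at 72 hr, Npy and Vgf, both lower. Over all 12001 features, 0% passed at 16 hr (0.00833% with the block), 0% at 24 hr (0.0167%), 0% at 48 hr (0.95%) and 5.48% at 72 hr (19.2%). Before adjustment, 101, 138, 1296 and 3070 features had a p under 0.05 in limma at the 4 times, and 0, 0, 0 and 2 of these 4 genes did. The median log2 fold change over all features at 72 hr was 0.00, and that of the 4 genes −0.49.

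Against the untransfected control all 6 genes that passed the filter on detection were tested at the later times. Nmu and Nmb passed that filter only through arrays of the induced groups. At 48 hr, 0 of 6 passed with or without the block, where 0% of all features passed without it and 1.63% with it, and before adjustment Nmu and Nmb, 2 of the 6, had a p under 0.05, as did 1426 of the 12001 features. At 72 hr, 1 of 6 passed without the block (Npy) and 3 of 6 with it (Npy, Cck and Vgf), all lower, where 7.11% and 20.4% of all features passed. Both controls were compared with the same induced arrays, so these counts do not stand apart from those against the transfected control. Between the transfected and the untransfected control 0 of 4 passed, with or without the block, as did 0% of all features without the block (for 109 features p was under 0.05 before adjustment) and 0.00833% with it. The differences were 0.02 for Npy, −0.31 for Cck, −0.03 for Vgf and 0.49 for Nmb, whose slide values were 0.32 and 0.65 and which was detected on no array of either control.

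Between 72 and 16 hr of induction, 0 of 4 genes passed without the block and 2 with it, Cck (−0.78, adjusted p = 0.0307 with the block in limma) and Vgf (−0.77, adjusted p = 0.00877). Of all features 3.07% passed without the block and 18.6% with it. Both calls rest on single arrays. Cck passed on leaving out replicate 1 of the 72 hr arrays (−1.33) and not on leaving out replicate 2 (−0.24, adjusted p = 0.300) or either 16 hr array (−0.83 and −0.74, adjusted p = 0.107 and 0.210). Vgf did not pass without replicate 2 of the 72 hr arrays (−0.48, adjusted p = 0.0887) or of the 16 hr arrays (−0.59, adjusted p = 0.143). Npy (−0.22, adjusted p = 0.228) and Nmb (adjusted p = 0.594) did not pass.

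The receptors of these peptides were mostly not detected. Of 19 listed genes 18 were on the array and 4 passed the filter. At 72 hr 0 of the 4 passed against the transfected control without the block, and 2 were lower with it, where 5.48% and 19.2% of all features passed. Galr3, a galanin receptor, had log2 normalized values of 4.89 and 4.65 at 72 hr, against 5.84 and 6.04 in the transfected control (adjusted p = 0.0146 with the block and 0.0662 without it in limma). Galr3 was detected on 1 of the 2 transfected control arrays, so no fold is given there. It was lower at 72 hr than in the untransfected control in both fits (at least 1.24-fold, adjusted p = 0.0448 without the block). Vipr1, a receptor shared by VIP and PACAP, had 5.45 and 5.26 at 72 hr, against 6.07 and 6.26 in the transfected control (at least 1.29-fold lower, adjusted p = 0.0202 with the block and 0.0642 without it). Galr3 and Vipr1 were detected on neither 72 hr array. Cckbr (0.33) and Galr1 (−0.17) did not pass. The median of the 4 was −0.49.

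Of 49 other genes of neuropeptides and gut peptides, 41 were on the array and 9 passed the filter, and at 72 hr against the transfected control 0 passed without the block, with a median of 0.00. With it, 2 were higher and 1 lower. Of all features, 5.48% passed without the block and 19.2% with it. Adm2, which encodes the vasodilator adrenomedullin 2, had 8.47 and 8.96 at 72 hr, against 5.67 and 6.38 in the transfected control (difference 2.69, adjusted p = 0.00468 with the block and 0.0775 without it in limma). Adm2 was detected on 1 of the 2 arrays of each control, so the size of this difference rests in part on a value at background. The untransfected control had 5.29 and 7.08. At 48 hr its arrays were far apart, at 6.37 and 9.49. Cartpt, which encodes the CART peptide, was higher by 0.59 (adjusted p = 0.0280 with the block and 0.394 without it in limma). Its values at 72 hr, 10.19 and 9.29, overlapped with those of the transfected control, 9.42 and 8.88. Pdyn, the precursor of dynorphin, had 14.13 and 12.71 at 72 hr, against 14.42 and 14.31 in the transfected control (−0.95, adjusted p = 0.0261 with the block). As with Cck, the lower value of Pdyn was on replicate 2 of the 72 hr arrays.

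Among 6 islet hormone genes, of which 4 were tested, Gcg, the glucagon gene that marks α cells, was lower at 72 hr, with 12.85 and 11.79, against 14.16 and 14.34 in the transfected control (−1.93, adjusted p = 0.0134 in limma). Here too replicate 2 was the lower. The other 3, Ins2 (−0.08), Iapp (0.17) and Ppy (−0.09), did not pass, where 5.48% of all features passed. For Ins2 the test cannot decide whether its level changed, because the value at its rank is set by quantile normalization. Ins2 had the same log2 normalized value, 15.53, on every array except replicate 2 at 72 hr (15.37), while its signals differed between arrays. No conclusion is drawn about Ins2. Whether the lower Gcg has a part in the values of the peptide genes at 72 hr was not tested.

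Prohormone processing and granin genes, which cut and pack these peptides, numbered 15, of which 11 were tested. At 72 hr 0 passed without the block and 1, Chga (chromogranin A, −0.47, adjusted p = 0.0382 in limma), was lower with it, and the median was −0.03. Of 20 genes of cAMP signaling and the CREB response 16 were tested. Pde10a, a cyclic nucleotide phosphodiesterase, was lower at 72 hr (−0.86, adjusted p = 0.0350), the only one of the 16 to pass without the block. With the block Crem (−0.94) and Nr4a2 (−0.89), both known targets of CREB, were also lower, and Crtc3, a coactivator of CREB, was higher (0.58). The median of the 16 was −0.15. Over all features, 5.48% passed this comparison without the block and 19.2% with it, so the counts are not read as a result about either list.

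**Figure D4:**
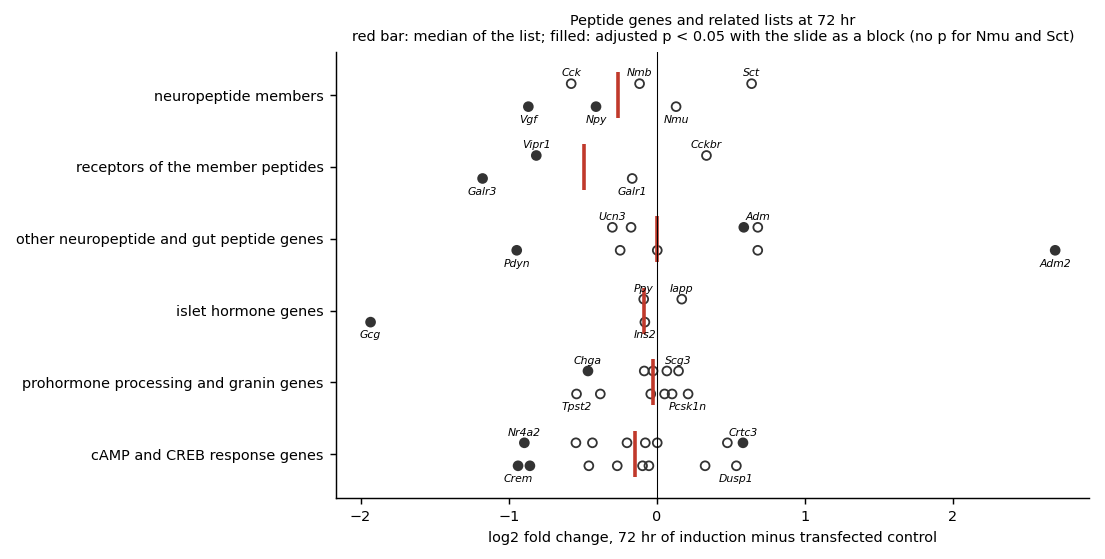
Log2 fold change at 72 hr of induction against the transfected control of every tested gene of the 6 lists, 1 row per list, with the list median as a red bar and filled points for an adjusted p under 0.05 with the slide as a block. The 6 lists straddle 0, Adm2 is the point farthest to the right and Gcg the one farthest to the left.

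Genes with a course like that of Nmu or Sct were ranked over the 6 group means, each centred on its own mean, by the root mean square difference on the log2 scale. For Nmu, whose own group means had a root mean square deviation of 0.73, the nearest were H2ac4 (0.43), Zfp607a (0.47), Id2 (0.47), Rsph1 (0.47) and Pramel4 (0.48). For Sct, with an own deviation of 0.26, the nearest were Enah (0.09), Rflna (0.11), Adra2c (0.11, detected on 2 arrays), Pex13 (0.11) and Shh (0.11). Their likeness to Sct, the low transfected control included, is what the ranking chose them by, for example 7.11 for Enah in the transfected control, against 7.76 in the untransfected control.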

How the data were processed

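Per the labels, total RNA of MIN6 cells was hybridized to 12 arrays. The authors deposited bead-averaged signal intensities, not normalized between arrays, each with its detection p-value, and quantile-normalized intensities, for which the submitters' processing notes name lumi with no version; the latter served as an alternative. The signal intensities were corrected for background by detection p and quantile normalized to log2 values (offset 16) with neqc of limma 3.58.1 in R 4.3.3. A probe was kept if 2 or more arrays had a detection p under 0.01, which left 17556, and the brightest was used per gene. This gave 12001 features, 9493 of them named. Of the array's probes 34885 have 1 symbol in the platform annotation, 18 have several and 10378 are not in it. Promoters and the microRNA are from RefSeq tables of GRCm38.p6. Figures were drawn with matplotlib 3.10.9 in Python 3.11.15.

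All 6 groups were fitted with limma (two-sided moderated test with a variance trend, Benjamini-Hochberg over all features, threshold 0.05). Residuals of arrays on the same slide, which carry the same replicate number, correlated for each of the 15 group pairs (0.207 to 0.628), so blocking on the slide is reported where it changes a call. The labels call the replicates biological, without naming separate cultures, and p-values measure the spread between these arrays. Limma was tested on simulated data. The genes and lists were chosen with earlier results of these data known. Named were all members, all tested receptors, up to 4 genes per other list with the smallest p at 72 hr, and the 5 nearest profiles of Nmu and of Sct.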

Additional observations from a re-analysis of the deposited data

Results flagged for a closer look

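In the comparisons with the transfected control, the differences of 2 of the peptide genes at 72 hr were unlike those at 16 hr by a test of the difference itself, made between the 72 and the 16 hr arrays in limma with the slide as a block. Cck was lower at 72 hr than at 16 hr by −0.78 on the log2 scale (adjusted p = 0.0307 with the block and 0.112 without it), on both slides (−0.29 and −1.28). Vgf was lower by −0.77 (adjusted p = 0.00877 with the block and 0.152 without it), also on both slides (−0.38 and −1.16). In both genes the larger difference was on slide 2. Without replicate 2 of the 72 hr arrays the differences with the block were −0.24 for Cck and −0.48 for Vgf, and both calls rest on single arrays, as given above. Of all features, 18.6% passed this test with the block and 3.07% without it.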

How the results depend on the processing

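The alternatives were run 1 at a time. With the slide as a block the count of peptide genes past the threshold was 2 at 72 hr against the transfected control, 3 at 72 hr against the untransfected control and 2 between 72 and 16 hr, in place of 1, 1 and 0, and the block changed no other call of these genes. In these comparisons the share of all features past the threshold rose with the block too, from 5.48%, 7.11% and 3.07% to 19.2%, 20.4% and 18.6%. With median scaling, with no filter on detection, with only the 2 groups compared and with the methods' t-test after Benjamini-Hochberg the count at 72 hr was 0 against either control. In the comparisons where no gene passed the main fit, the unadjusted t-test of the methods gave 1 gene, Cck, at 24 hr against the transfected control and 1, Cck, between the 2 controls. By the same unadjusted t-test Npy passed at 72 hr against either control. Leaving out single arrays, with or without the block, gave counts of 0 to 3 at 72 hr against either control and of 0 to 2 between 72 and 16 hr. The cause of these changes was not tested.

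Some differences turned sign, and not all of these were near 0, as that of Cck at 72 hr from the transfected control was −0.58. Against the untransfected control in place of the transfected one, Cck was −0.10, −0.030 and −0.18 at 16, 24 and 48 hr, Npy was 0.000487 at 24 hr and Nmb was 0.37 at 72 hr. Between the transfected and the untransfected control Npy was −0.038 with median scaling and the second Vgf probe 0.038. On leaving out single arrays, with or without the block, the differences from the transfected control ranged from −0.0074 to 0.29 for Nmb and −0.50 to 0.30 for Vgf at 16 hr. At 24 hr they ranged from −0.082 to 0.052 for Npy, −0.066 to 0.48 for Nmb and −0.34 to 0.26 for Vgf, and at 48 hr from −0.033 to 0.28 for Cck, −0.10 to 0.38 for Nmb and −0.63 to 0.081 for Vgf. At 72 hr they ranged from −1.18 to 0.023 for Cck and −0.43 to 0.20 for Nmb. Against the untransfected control they ranged from −0.25 to 0.22 for Sct, −0.42 to 0.057 for Cck and −0.66 to 0.049 for Vgf at 48 hr, and from −0.34 to 0.15 for Sct at 72 hr. Between the controls the ranges were −0.011 to 0.042 for Npy and −0.33 to 0.27 for Vgf, and between 72 and 16 hr the range was −0.57 to 0.054 for Nmb. None of these differences passed with all arrays in the fit, with or without the block. Where an array was left out, its partner was assumed to vary like the other groups. The fits with the block and without the 48 and 72 hr arrays, and the comparison of 48 hr with the untransfected control, were added after the data were seen. Signals of Nmb, Gal and Adcyap1, and of Nmu outside 16 and 24 hr, are at background, which limits what their values show.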
